A study of Homo sapiens with 9 samples.

Results

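Cells in which DDX3X had been knocked down were compared with the same kind of cells given wild type DDX3X back. All were Daoy cells, a long-established human line from a childhood tumour of the cerebellum, medulloblastoma, and the labels call the hairpin lines polyclonal. The comparison takes 4 of the 9 RNA-seq libraries of the study by their labels: 1 library of knockdown cells carrying wild type DDX3X and 3 knockdown libraries. All 3 knockdowns used a hairpin RNA expressed from a doxycycline-inducible lentiviral vector. The hairpin lay in the 3' untranslated region (UTR) of DDX3X in shDDX3X 1 and 3 and in the open reading frame in shDDX3X 2. The wild type library came from cells with the 3' UTR hairpin that had been stably transfected with a FLAG-tagged DDX3X construct, so these cells carried the hairpin too. Parental cells and vector cells (1 library each) gave the level without knockdown. The labels give a single treatment text, doxycycline at 1 µg/ml for 72 h, and it is not stated whether the parental and vector cells were treated. Mutant libraries, 1 for each of the alleles G302V, R534H and P568L, entered the fit to estimate the spread between libraries. Their ratios to shDDX3X 3 are given for 3 gene groups and for the genes chosen in series A. For some single genes their ratios or levels are given too.

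DDX3X is an X-linked DEAD-box RNA helicase that unwinds structured RNA, acts in translation initiation and joins stress granules. It also takes part in the signalling that follows the sensing of viral RNA, where it works with the kinases that switch on type I interferon. The gene is recurrently mutated in medulloblastoma of the Wnt and sonic hedgehog groups. The question here is which expression changes of knockdown are undone in the cells given wild type DDX3X. The functions of the genes that came back and of those that did not are described.

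The libraries held 8216568 to 13030572 reads assigned to genes, 8318129 in the wild type library and 8639551 to 12519035 in the knockdowns. By the numbers in their deposited names they fall in 2 series: parental, shDDX3X 1 and shDDX3X 2 (series A, 5.24% to 5.73% of reads not aligned) and the other 6 (series B, 19.6% to 24.0%). Vector, shDDX3X 3 and wild type therefore share a series. Each pooled median of wild type against knockdown for a gene group is set beside its median ratio to shDDX3X 3. Most single genes are given library by library. Across 11590 genes, the fitted difference of wild type from the 3 knockdowns correlated with the GC content of the transcript (Spearman's rho -0.38), while the ratio of wild type to shDDX3X 3 hardly did (-0.07); genes share libraries here and the values only describe them. Of the genes of the cerebellar granule lineage, ZIC1, ZIC2, PAX6 and OTX2 were detected, while ATOH1, NEUROD1 and BARHL1 stayed at or below 0.475 CPM in every library. CPM denotes counts per unit of library size after normalisation. PTPRC, a marker of blood cells, did not exceed 0.104 CPM. Of 14 blood cell markers listed, 3 reached the level tested: CSF1R at 2.535 to 5.464 CPM, and CD4 and CD14 at no more than 1.84 CPM. Of 10 endothelial markers listed, 6 reached it, among them TIE1 at 8.68 to 81.0 CPM.

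DDX3X RNA was no higher with the construct than the spread of the knockdowns. It was at 683 CPM in parental and 453 CPM in vector cells, at 249, 139 and 182.5 CPM in shDDX3X 1, 2 and 3, and at 195 CPM with wild type DDX3X. The wild type value thus lay inside the range of the knockdowns and below both controls. Against vector it stood at 43.1%, and shDDX3X 3 at 40.3%. The fold against the knockdowns was 1.18 (95% interval 0.70 to 1.99; edgeR quasi-likelihood adjusted p = 1). Counts per gene do not separate RNA of the construct from RNA of the endogenous gene, and the protein was not measured in these files.

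No gene passed the test between wild type and knockdown, but single genes and gene groups differed in opposite directions. Of 16155 genes tested by edgeR, 0 (0.0%) were called at an adjusted p of 0.05, 286 (1.77%) were higher and 186 (1.15%) lower at an unadjusted p under 0.05. DESeq2 called 3 genes, SULF1, TSPAN11 and CLDN16. The test borrowed the spread of the single wild type library from the other groups, and 596 genes were called when shDDX3X 3, the only knockdown of series B, was left out. Against control, wild type likewise gave 0 calls (0.0%), with 410 genes (2.54%) higher and 302 (1.87%) lower at an unadjusted p under 0.05 and 5 calls by DESeq2. Leaving out the vector library gave 607 calls there. Knockdown against control, given below for what it did to each gene, called 46 genes (0.285%) higher and 63 (0.39%) lower by edgeR and 1324 in all by DESeq2. Without the mutant libraries edgeR called 0 there, with 2270 genes at an unadjusted p under 0.05. Within series B, where 1 library stands on each side and no test applies, 170 of 11796 genes with a mean of at least 5 CPM (1.44%) were at least 2-fold higher in wild type than in shDDX3X 3 and 50 (0.424%) at least 2-fold lower.

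**Figure D1:**
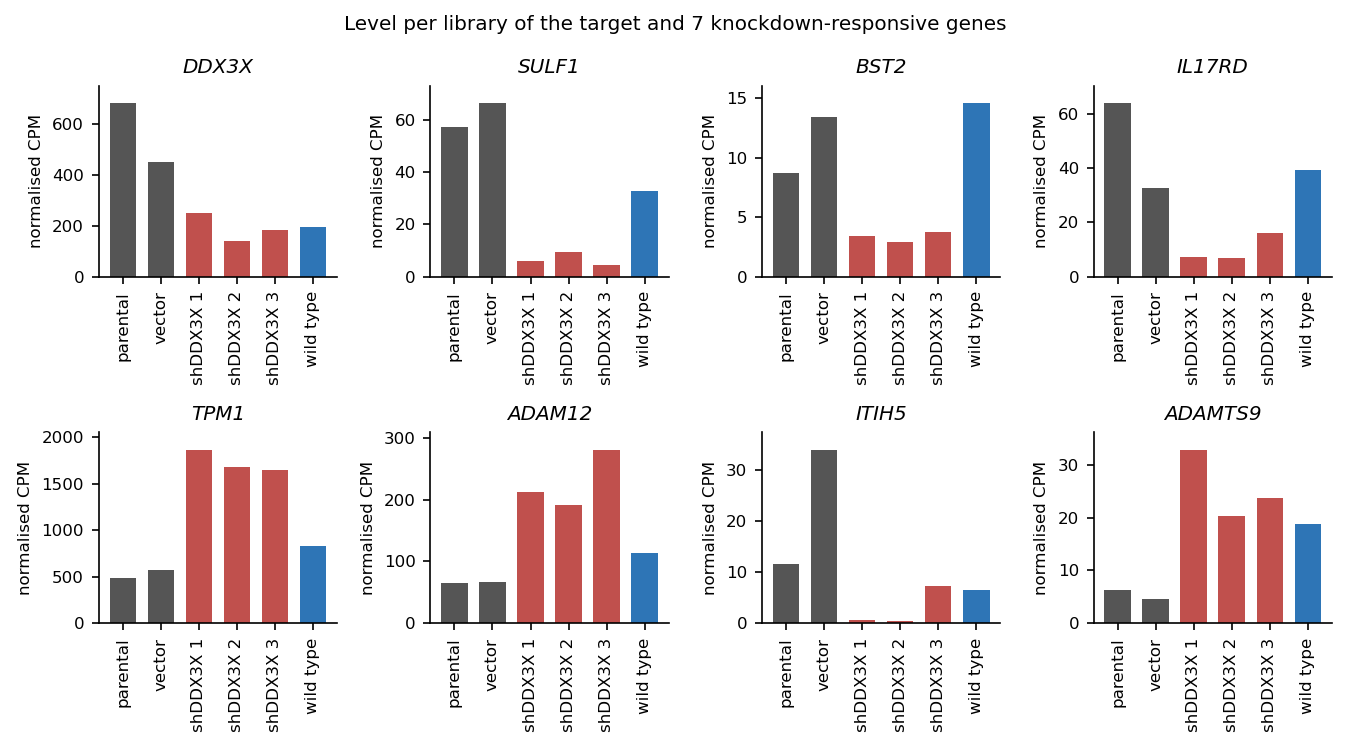
Normalised CPM (vertical axis, from 0) of 8 genes in parental, vector, the 3 knockdown libraries and the wild type library, 1 bar for each library. DDX3X stays at 195 CPM with wild type, inside the knockdown range, while SULF1, BST2 and IL17RD lie above all 3 knockdowns, TPM1 and ADAM12 lie below them, and ITIH5 (6.53 CPM) and ADAMTS9 (18.8 CPM) stay nearer to the knockdowns than to the controls.

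The genes that knockdown had lowered were read first in libraries that did not choose them. In series A, 210 of 11729 genes with a mean of at least 5 CPM, DDX3X among them, were at least 2-fold lower in both shDDX3X 1 and shDDX3X 2 than in parental cells. Of these, 158 were higher in wild type than in shDDX3X 3 (75.2%), against 49.6% of all 11729 genes. At least 2-fold higher were 38 of them (18.1%), against 1.20% of all genes, and 3 were at least 2-fold lower. Their median log2 ratio to vector was -0.58 in shDDX3X 3 and -0.15 in wild type. Against shDDX3X 3 their median log2 ratio was 0.389 in wild type. It was 0.293, 0.298 and 0.155 in the G302V, R534H and P568L libraries, and the differences were not tested. The series B libraries are 1 each, so these shares and medians have no replicate check.

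Not all of the 210 were lower in series B to begin with. In shDDX3X 3, 58 stood at least 2-fold below vector, as did 2.92% of 11796 genes. Wild type was within 2-fold of vector for 37 of these 58, still at least 2-fold below it for 19, and at least 2-fold above it for 2, IFI6 and TSPAN11. For comparison, 98.1% of all 11729 genes were within 2-fold of vector in wild type. The 58 were picked on shDDX3X 3 itself, so their ratio of wild type to shDDX3X 3 is a description. Just inside that bound lay KHDRBS3, at a log2 ratio of -1.001 in shDDX3X 3, and just outside it lay IL17RD at -0.99. Among the 19, SULF1 was at the 2-fold mark with a log2 ratio of wild type to vector of -1.001.

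**Figure D2:**
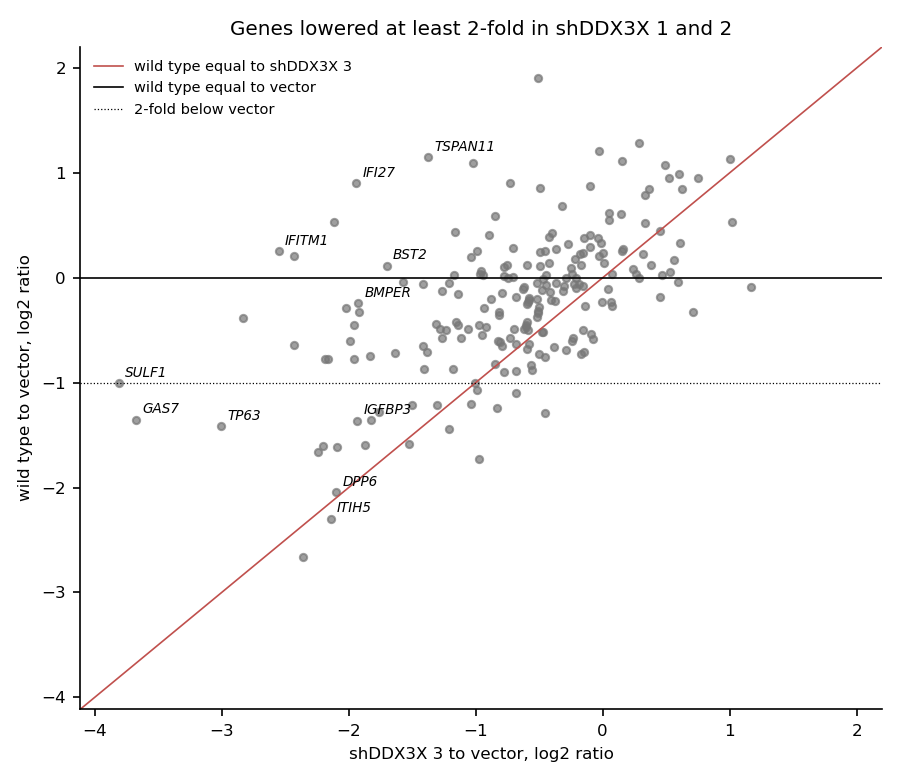
Log2 ratio to vector in shDDX3X 3 (horizontal) and in wild type (vertical) of the genes at least 2-fold lower in shDDX3X 1 and 2 than in parental cells, 1 point a gene (209 plotted, 1 beyond the axis). Points above the red diagonal (158 of 210 genes) were higher in wild type than in shDDX3X 3, and those below the dotted line remained more than 2-fold under vector, such as GAS7, TP63, DPP6 and ITIH5.

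Genes raised by knockdown were followed in the same way. In series A, 1063 genes were at least 2-fold higher in both knockdowns than in parental cells, and their median GC content was 62.2%, against 47.8% for all 11729 genes and 45.0% for the lowered genes. In series B 41 of them were at least 2-fold above vector in shDDX3X 3, as were 1.72% of 11796 genes. Wild type was within 2-fold of vector for 33 of these 41 and still beyond it for 8, while 98.1% of all 11729 genes were within 2-fold of vector. The 41 were picked on shDDX3X 3 itself, so these counts are a description. Over all 1063, 621 (58.4%) were lower in wild type than in shDDX3X 3, against 50.4% of all genes, 8 (0.753%) at least 2-fold lower, against 0.418%, and 12 at least 2-fold higher. The median log2 ratio of wild type to shDDX3X 3 was -0.06 over the raised genes and 0.39 over the lowered genes. Over the raised genes it was -0.064, -0.065 and -0.219 in the G302V, R534H and P568L libraries.

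Antiviral effectors, the interferon-induced proteins that cut viral RNA, block entry or hold back budding virus, were mostly higher with wild type DDX3X. Interferon-stimulated genes are switched on by the transcription factor complex ISGF3, which reads a short element in their promoters, the ISRE. To show that element in the members described below, a search for GAAANNGAAA on both strands was made in RefSeq promoters of GRCh38.p14 (250 bases before to 50 after the start). It is printed in capitals, and so is any second match of overlapping or neighbouring letters.
BST2 (chr19:17405737-17405762, minus strand): ggGAAACTGAAACTGAAAacctaatt
IFITM1 (chr11:313992-314017, plus strand): aacagcagGAAATAGAAActtaagag
IFI27 (chr14:94110633-94110658, plus strand): GTTTCctgGAAAATGAAAcctatctc
IFI6 (chr1:27672268-27672293, minus strand): agagtgcaGAAATAGAAActccgaca
IFIH1 (chr2:162318688-162318713, minus strand): agagaatcGAAACAGAAAccaaagtc
The letters were found in 26 of the 39 antiviral promoters in the table (66.7%) and in 463 of 11557 promoters of all genes tested (4.01%). A match describes the letters and is neither a shown binding site nor a cause.

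Of the 46 antiviral effectors tested, 43 were higher with wild type than with knockdown in the fit (48.2% of all genes were), 23 of them at an unadjusted p under 0.05 (1.77% of all genes) and 0 lower. The wild type value lay above all 3 knockdowns for 31 (24.0% of all genes). The median log2 fold change was 0.74, against -0.02 over all genes, and the median for knockdown against control, which shares the knockdown libraries, was -0.56. Within series B the median log2 ratio was 0.82 to shDDX3X 3 and 0.29 to vector. Of 45 members with a mean of at least 5 CPM, 18 were at least 2-fold higher in wild type than in shDDX3X 3 and 0 lower. The median ratio of wild type to shDDX3X 1, in the other series, was smaller at 0.38. Once each library's GC trend was taken out, the fitted median was 0.74 as well.

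Among the membrane proteins of this group, BST2 (tetherin, which holds budding virus at the cell surface) was at 8.73 and 13.4 CPM in parental and vector cells, 3.39, 2.93 and 3.78 CPM in the knockdowns and 14.6 CPM with wild type. The wild type value exceeded all knockdowns and was 109% of vector, and knockdown itself had lowered BST2 (log2 -1.61, edgeR adjusted p = 0.0449). The log2 ratio of BST2 to shDDX3X 3 was 1.82 in wild type and 1.69, 1.74 and 1.22 in the G302V, R534H and P568L libraries. IFITM1, which blocks the fusion of incoming virus, was at 8.26 and 10.1 CPM in the controls, 0.662, 2.60 and 1.30 CPM in the knockdowns and 12.1 CPM with wild type. IFI27 and IFI6, interferon-induced mitochondrial proteins, were also higher with wild type than in every knockdown. IFI27 was at 29.2 and 14.1 CPM in the controls, 4.88, 6.03 and 3.31 CPM in the knockdowns and 26.8 CPM with wild type. IFI6 was at 25.6 and 21.8 CPM, then 8.53, 8.21 and 10.5 CPM, and 47.0 CPM with wild type, which is 215% of vector. In these 4 genes the wild type library and the knockdowns did not overlap, and the fitted log2 fold changes were 1.82 ± 0.39, 2.96 ± 0.76, 3.13 ± 0.91 and 2.33 ± 0.70 (SE) in the order given, each with an edgeR adjusted p of 1.

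Enzymes and RNA-binding effectors were also higher against shDDX3X 3, while for OAS2, OASL and IFIT1 shDDX3X 1 stood nearer to wild type than the other knockdowns. OAS2, which makes the second messenger that activates RNase L, was at 61.7 and 33.3 CPM in the controls, 27.98, 8.04 and 5.79 CPM in the knockdowns and 38.6 CPM with wild type. OASL, an enzymatically inactive relative that aids RIG-I, was at 111 and 130.0 CPM, 128, 45.8 and 33.7 CPM, and 210.5 CPM. For both, shDDX3X 1 was well above the other knockdowns. IFIT1, which binds viral RNA that lacks cap methylation, was at 49.1 and 28.3 CPM, 27.98, 11.0 and 8.86 CPM, and 30.9 CPM. HERC5, the ligase that attaches ISG15, was at 71.8 and 38.3 CPM in the controls, 44.8, 42.9 and 17.8 CPM in the knockdowns and 42.0 CPM with wild type. With wild type HERC5 was thus higher than in shDDX3X 3 alone and just below the other knockdowns, although its fitted log2 fold change, from the fit with the series term, was 1.11 ± 0.28 (SE, adjusted p = 1).

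Some antiviral genes stood above vector in the wild type library. CMPK2, a mitochondrial nucleotide kinase, was at 6.24 and 6.80 CPM in the controls, 10.6, 8.46 and 6.499 CPM in the knockdowns and 19.9 CPM with wild type, which is 293% of vector. RSAD2 (viperin), encoded next to CMPK2, was at 14.9 and 14.4 CPM, 24.7, 7.62 and 10.6 CPM, and 37.9 CPM, 263% of vector. In both genes wild type was higher than every control and knockdown library, and the knockdowns did not lie below the controls as a group. Together with IFI6 they were the 3 of 45 members at least 2-fold above vector, against 1.09% of all genes, and the other 42 were within 2-fold of it (98.0% of all genes). The 3 members with a lower fitted value were LGALS3BP, TRIM22 and ISG15. ISG15, the ubiquitin-like modifier, was at 5.92 CPM in parental and 67.8 CPM in vector cells, 53.1, 37.5 and 39.1 CPM in the knockdowns and 86.1 CPM with wild type. Its fitted log2 fold change of -0.10 ± 0.94 (SE) went against the log2 ratio of 1.13 to shDDX3X 3, and the parental value stood apart from all others.

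The mutant libraries, read against the same shDDX3X 3, had antiviral medians of 0.30, 0.59 and 0.42 for G302V, R534H and P568L beside 0.82 for wild type. These 4 ratios share 1 knockdown library, and their differences were not tested. The summed level of the 46 genes was 3219, 2668 and 3340 CPM in the knockdowns, 4027 and 3728 CPM in parental and vector cells and 4558 CPM with wild type.

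**Figure D3:**
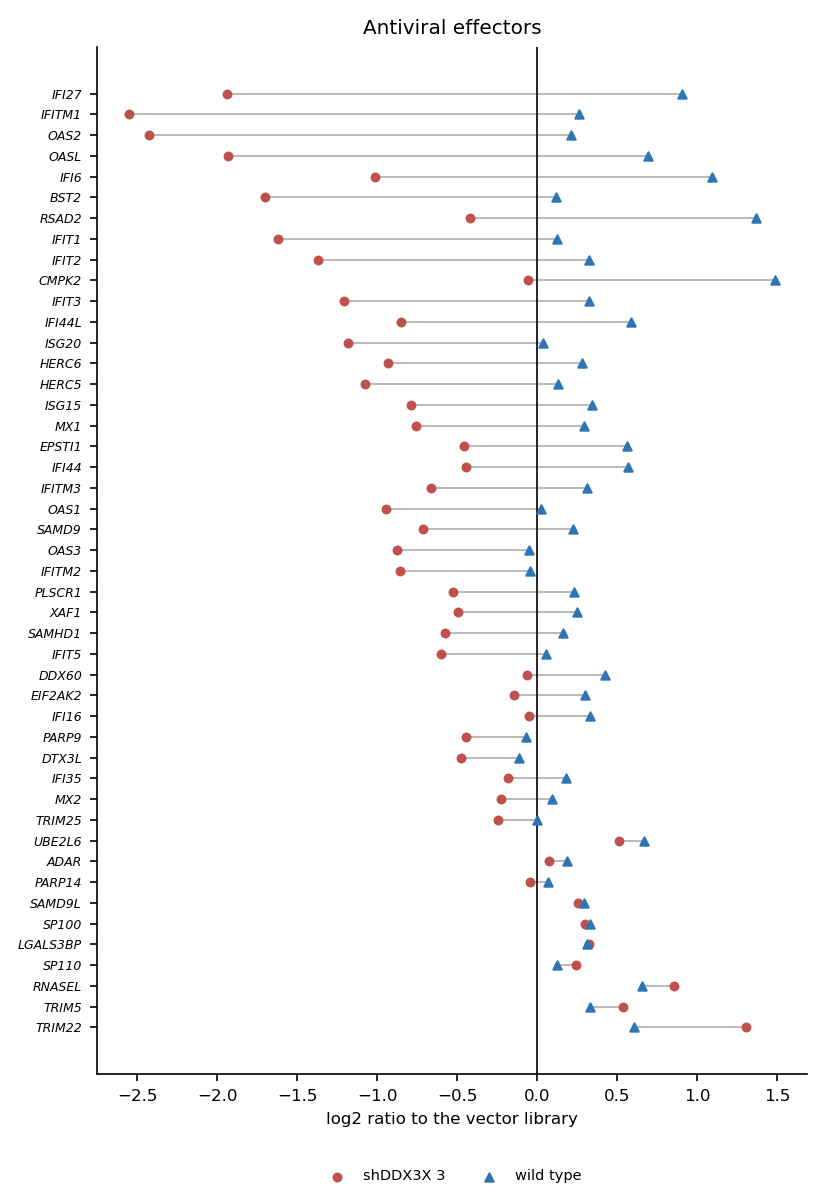
Log2 ratio to the vector library (horizontal) of each antiviral effector in shDDX3X 3 (red circles) and wild type (blue triangles), 1 library each, ordered by the difference. Most circles lie left of 0 and most triangles right of it. The lowest lines of the plot, such as TRIM22, run the other way.

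Upstream of the effectors, some sensors were higher with wild type, while signalling and antigen processing genes gave other values. Of 14 genes that sense viral RNA or DNA, 9 were higher and 5 lower in the fit (48.2% of all genes were higher). The median log2 fold change was 0.33 in the fit and 0.38 against shDDX3X 3. IFIH1 (MDA5), a sensor of long double-stranded RNA, was at 46.4 and 33.6 CPM in the controls, 44.5, 24.97 and 20.4 CPM in the knockdowns and 54.4 CPM with wild type. RIGI, the sensor of RNA with a triphosphate end, was at 68.8 and 38.7 CPM, 75.4, 32.9 and 22.7 CPM, and 57.0 CPM, so that shDDX3X 1 exceeded it. AIM2, which senses DNA in the cytosol, was at 12.9 and 5.52 CPM, 9.93, 9.13 and 2.84 CPM, and 8.74 CPM. All 3 had an adjusted p of 1. STING1, the adaptor of DNA sensing, was at 33.8 and 47.7 CPM in the controls, 15.4, 17.6 and 13.7 CPM in the knockdowns and 25.6 CPM with wild type, between the groups and at 53.7% of vector. MAVS, the adaptor of RNA sensing, was at 67.3 and 94.1 CPM, 79.4, 63.5 and 118 CPM, and 112 CPM, inside the knockdown range.

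The 18 receptors, kinases and transcription factors of interferon signalling divided into 10 higher and 8 lower, with a median of 0.04 and none at an unadjusted p under 0.05 in either direction. Against shDDX3X 3 their median was 0.09, and 48.2% of all genes were higher in the fit. IRF9 and STAT2, which are parts of ISGF3, had higher values. IRF9 was at 6.94 and 5.03 CPM in the controls, 1.74, 1.84 and 1.42 CPM in the knockdowns and 3.15 CPM with wild type, above the knockdowns and below the controls. STAT2 was at 163 and 107 CPM, 69.8, 94.0 and 101.4 CPM, and 132 CPM. Wild type exceeded every knockdown for STAT2 by less than 2-fold. IRF1, which drives antigen presentation genes, was at 55.9 and 57.4 CPM in the controls, 121, 77.8 and 81.2 CPM in the knockdowns and 63.9 CPM with wild type, in the opposite direction.

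Antigen processing genes did not share the direction of the antiviral effectors. Of 15 members, 13 were lower and 2 higher with wild type, 0 at an unadjusted p under 0.05 in either direction, with a median of -0.17 in the fit and -0.15 against shDDX3X 3. Of all genes, 51.8% were lower in the fit. The antigen processing median for knockdown against control was 0.46. TAPBP, which loads peptide onto class I molecules, was at 120 and 241 CPM in the controls, 410.0, 196 and 519 CPM in the knockdowns and 470 CPM with wild type. TAP1, which carries peptide into the endoplasmic reticulum, was at 47.5 and 76.7 CPM, 98.3, 78.5 and 109 CPM, and 106 CPM. Both remained within the knockdown range, TAPBP at 195% of vector. The class I light chain B2M was at 1272 and 658 CPM, 964, 693 and 716 CPM, and 728 CPM, inside the spread of all groups. The ISRE letters were in 10 of the 14 antigen processing promoters in the table (71.4%), beside 66.7% of those of the antiviral effectors.

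Contractile and actin genes were lower with wild type DDX3X and back near the vector level. This group holds myosins, tropomyosins, filamins and the regulators of stress fibres. Of 31 members, 28 were lower and 3 higher in the fit (51.8% of all genes were lower), 6 of them lower at an unadjusted p under 0.05 (1.15% of all genes) and 0 higher, and the wild type value lay below all 3 knockdowns for 19 (22.2% of all genes). The median log2 fold change was -0.48, and the median for knockdown against control was 0.40. Within series B the median ratio was -0.43 to shDDX3X 3 and -0.06 to vector. It was -0.34 and -0.39 to shDDX3X 1 and 2. The mutant libraries had medians of the same sign against shDDX3X 3, at -0.38 for G302V, -0.30 for R534H and -0.27 for P568L, and their differences from wild type were not tested. The fitted median was -0.39 with the GC trend removed and -0.73 without shDDX3X 3.

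TPM1, a tropomyosin that stabilises actin filaments, was at 490.1 and 566 CPM in the controls, 1862, 1679 and 1645 CPM in the knockdowns and 833 CPM with wild type. In the G302V, R534H and P568L libraries TPM1 was at 766, 1063 and 1145 CPM. With wild type it lay below every knockdown and above both controls, at 147% of vector against 291% in shDDX3X 3. The fitted log2 fold change was -1.07 ± 0.28 (SE, edgeR adjusted p = 1), and knockdown had raised TPM1 by 1.72 (adjusted p = 0.0160). MYH9, the heavy chain of non-muscle myosin IIA, was at 884 and 1943 CPM, 3432, 2531 and 3235 CPM, and 1678 CPM. The filamin FLNA, which cross-links actin, was at 880 CPM in parental and 2494 CPM in vector cells, 3767, 3297 and 4307 CPM in the knockdowns and 2866 CPM with wild type. Both were below each knockdown with wild type, at 86.4% and 115% of vector, and both differed by more than 2-fold between the controls.

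SRF, the transcription factor that reads the CArG box in muscle and actin genes, was at 52.6 and 111 CPM in the controls, 127, 112 and 157 CPM in the knockdowns and 117 CPM with wild type, which was above shDDX3X 2. CNN2, an actin-binding calponin, was at 184 and 363 CPM, 369.5, 440.1 and 529 CPM, and 390 CPM. The CArG box, searched by its name's consensus on both strands, was in 7 of 28 promoters of this group (25.0%) and in 1.65% of all promoters. It is shown in capitals for CNN2 and FLNA, whose levels were described.
CNN2 (chr19:1026511-1026536, plus strand): cctccaggCCTTATAAGGacatttgc
FLNA (chrX:154374711-154374736, minus strand): caattttaCCAATTAAGGctttctcg
TPM3, LIMA1 and MYH10 had fitted log2 fold changes of 0.15, 0.04 and 0.04, so the direction did not hold for the whole group.

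**Figure D4:**
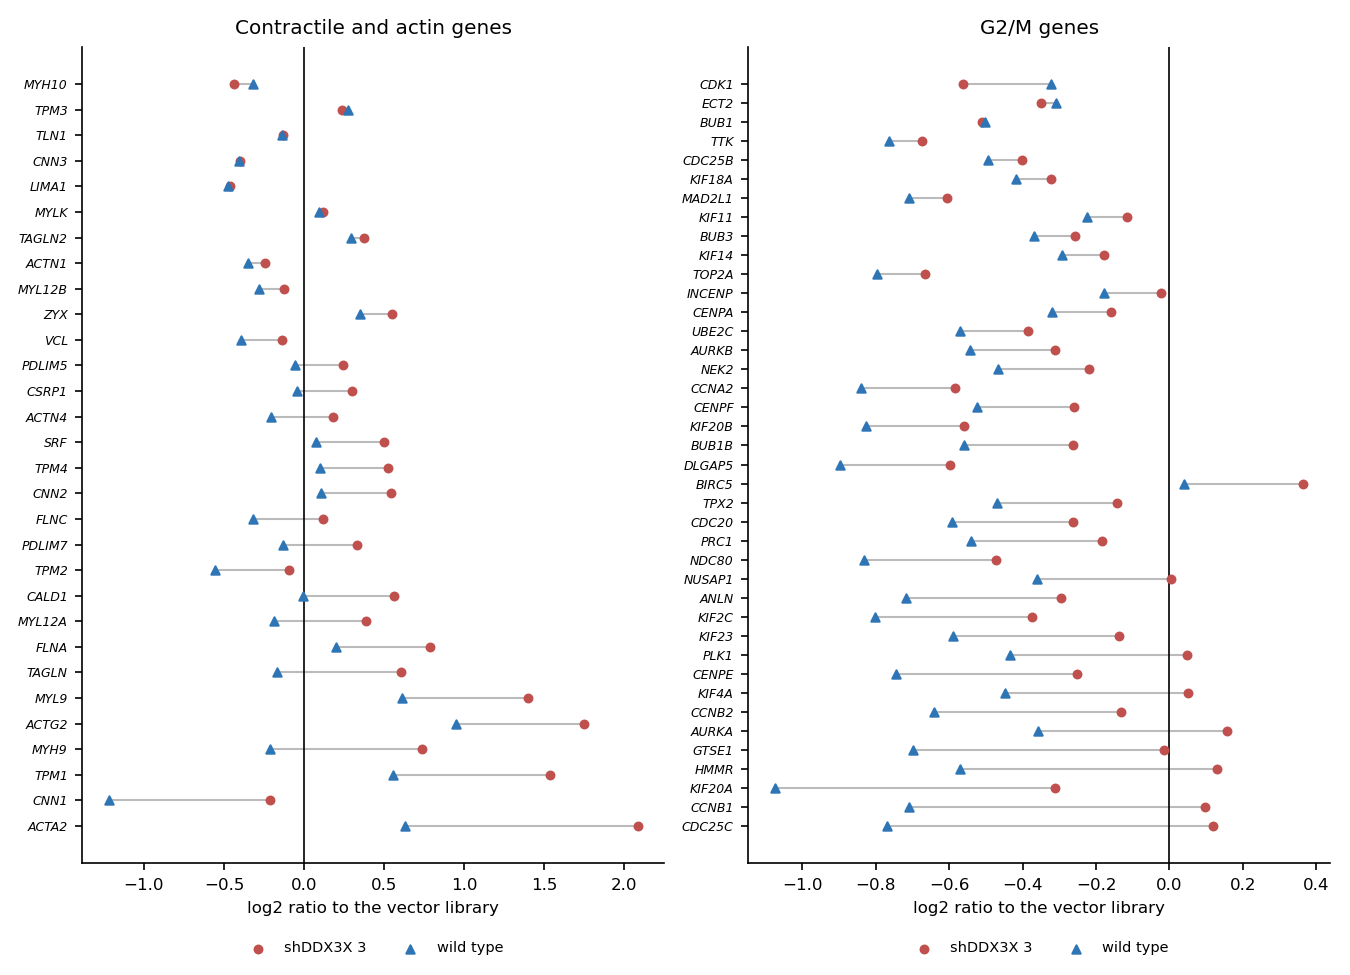
Log2 ratio to the vector library (horizontal) of contractile and actin genes (left) and G2/M genes (right) in shDDX3X 3 (red circles) and wild type (blue triangles), 1 library each, without 1 contractile gene that is not reported. On the left the triangles centre near 0 (median -0.06 over the whole list) and on the right they lie below it (median -0.55), further from vector than the circles.

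Genes of the G2 phase and mitosis were lower with wild type as well, but here the wild type library stood further from control than the knockdowns did. These genes encode the kinases, cyclins and spindle motors that carry a cell through division. Of 40 members, 38 were lower and 2 (CDK1 and ECT2) higher in the fit (51.8% of all genes were lower). At an unadjusted p under 0.05, 6 were lower (1.15% of all genes), and 35 lay below all 3 knockdowns (22.2% of all genes). The median log2 fold change was -0.32 against knockdown, -0.24 for knockdown against control and -0.54 for wild type against control. In series B the median ratio was -0.30 to shDDX3X 3 and -0.55 to vector, although 39 of 40 were within 2-fold of vector. Against the same shDDX3X 3 the median was -0.31 in the G302V library, -0.30 in R534H and -0.04 in P568L, so 2 mutants had about the wild type value, and these differences were not tested.

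CCNB1, the cyclin that activates CDK1 at mitotic entry, was at 449 and 357 CPM in the controls, 394, 384 and 382 CPM in the knockdowns and 218 CPM with wild type. Knockdowns and controls overlapped, and wild type was below all 5. KIF20A, a motor needed for cytokinesis, was at 236 and 187 CPM, 169, 191 and 151 CPM, and 88.7 CPM, and it was the member at least 2-fold below vector (47.3% of vector; 0.933% of all genes were at least 2-fold below). CDC25C, the phosphatase that releases CDK1, was at 59.9 and 45.5 CPM, 47.7, 35.1 and 49.4 CPM, and 26.5 CPM. GTSE1, which acts on microtubules and p53, was at 65.0 and 97.7 CPM, 76.2, 82.2 and 96.8 CPM, and 60.0 CPM. The mitotic kinases PLK1 (126 CPM) and AURKA (84.5 CPM) were below each knockdown with wild type too. Each of these had an edgeR adjusted p of 1, with fitted log2 fold changes between -0.58 (AURKA) and -0.78 (GTSE1).

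The promoters of many G2/M genes hold the cell cycle homology region (CHR), TTTGAA, which is read by the DREAM complex. It was found on either strand in 25 of 34 promoters of this group (73.5%), in 1 of 33 promoters of the DNA replication group (3.03%) and in 14.1% of all promoters. It is shown in capitals for 3 of the members above.
PLK1 (chr16:23678852-23678873, plus strand): gcgccgcgTTTGAAttcgggga
CDC25C (chr5:138331821-138331842, minus strand): gcggaaggTTTGAAtggtcaac
GTSE1 (chr22:46296836-46296857, plus strand): gagcccttTTCAAAccgaccaa
DNA replication genes were lower in 28 of 39 (51.8% of all genes were), none at an unadjusted p under 0.05 in either direction. They were below all knockdowns in 16 (22.2% of all genes were), with a median of -0.15 in the fit and -0.14 against shDDX3X 3.

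Matrix genes gave mixed values. The 31 collagens and collagen-modifying enzymes divided into 19 lower and 12 higher (51.8% of all genes were lower). Their median was -0.11 in the fit but 0.03 against shDDX3X 3. COL1A1, a chain of type I collagen, was at 1668 and 4721 CPM in the controls, 6635, 5207 and 9871 CPM in the knockdowns and 5276 CPM with wild type, inside the knockdown range (above shDDX3X 2) and at 112% of vector. LOXL2, which cross-links collagen, was at 164 and 199 CPM, 256, 213 and 314 CPM, and 189 CPM, below all knockdowns and at 95.2% of vector. COL16A1 was at 13.6 and 34.2 CPM, 47.4, 72.0 and 70.3 CPM, and 36.5 CPM, again below all knockdowns. COL7A1, the anchoring fibril collagen, was raised by knockdown (log2 2.16, edgeR adjusted p = 0.0175) and stayed nearer to it. Its values were 111 and 250.1 CPM in the controls, 741, 610 and 765 CPM in the knockdowns and 493 CPM with wild type, 197% of vector against 306% in shDDX3X 3. COL3A1 went the other way at 1355 and 709 CPM, 138, 349 and 911 CPM, and 1273 CPM, with shDDX3X 3 apart from the other knockdowns.

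Among proteases, ADAM12, a membrane metalloprotease, was at 65.9 and 67.4 CPM in the controls, 213, 191 and 281 CPM in the knockdowns and 113 CPM with wild type, a log2 fold change of -1.19 ± 0.23 (SE, edgeR unadjusted p = 0.000504, adjusted p = 1). Wild type was below each knockdown and above both controls, at 168% of vector against 417% in shDDX3X 3. The log2 ratio of ADAM12 to shDDX3X 3 was -1.31 in wild type and -0.76, -0.66 and -0.61 in the G302V, R534H and P568L libraries. ADAMTS9, a secreted protease that cleaves proteoglycans, was at 6.24 and 4.54 CPM in the controls, 32.9, 20.4 and 23.6 CPM in the knockdowns and 18.8 CPM with wild type, 414% of vector against 521%. The protease inhibitor TIMP3 was lower with wild type than in any control or knockdown library, at 100.9 and 168 CPM, 93.7, 60.9 and 57.1 CPM, and 40.7 CPM with wild type, 24.3% of vector. TIMP3 was at 34.1, 52.4 and 27.6 CPM in the G302V, R534H and P568L libraries. Of the 23 matrix proteases and inhibitors, 9 were higher and 14 lower (51.8% of all genes were lower). Their median was -0.15 in the fit and 0.0 against shDDX3X 3.

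Heparan sulfate enzymes included SULF1 (edgeR unadjusted p = 0.000101, adjusted p = 1), which removes sulfate groups from heparan sulfate outside the cell. SULF1 was at 57.1 and 66.3 CPM in parental and vector cells and 5.88, 9.47 and 4.25 CPM in the knockdowns. The wild type library reached 49.6% of vector where shDDX3X 3 was at 6.42%, above every knockdown and below both controls. The log2 ratio of SULF1 to shDDX3X 3 was 2.81 in wild type and 2.42, 2.57 and 2.29 in the G302V, R534H and P568L libraries. Its relative SULF2 was at 149 and 59.0 CPM in the controls, 35.6, 42.0 and 54.9 CPM in the knockdowns and 108 CPM with wild type, 184% of vector. The list of 22 genes, which holds syndecan and glypican core proteins as well as enzymes, had a median of 0.08 in the fit. Against shDDX3X 3 its median was 0.16. In the fit 14 were higher (48.2% of all genes were) and 8 lower.

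NF-kB and YAP targets depended on which knockdown was the reference. NF-kB drives inflammatory cytokines, and YAP drives growth and matrix genes under mechanical load. Of 32 NF-kB targets, 23 were lower and 9 higher (51.8% of all genes were lower). Their fitted median was -0.27 beside 0.97 for knockdown against control. Against shDDX3X 3 the median was 0.07, and the fitted median without that library was -1.11. IL11, a cytokine of the IL-6 family, was at 2.10 CPM in parental and 24.8 CPM in vector cells, 108, 108 and 65.3 CPM in the knockdowns and 25.2 CPM with wild type. LIF, of the same family, was at 16.6 and 47.5 CPM, 67.5, 53.6 and 72.0 CPM, and 38.6 CPM. IER3, an early response gene, was at 33.7 and 121 CPM, 135, 119 and 154 CPM, and 103 CPM. These 3 were below all knockdowns and between 81.2% and 101.3% of vector. Of 27 YAP targets, 22 were lower and 5 higher (51.8% of all genes were lower). Their median was -0.37 in the fit and -0.14 against shDDX3X 3. CRIM1 was at 207 CPM with wild type against 280.0, 201 and 321 CPM in the knockdowns.

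Feedback genes of the ERK pathway, which growth factor signalling induces and which then restrain it, were higher in 17 of 25 (48.2% of all genes were). Their median was 0.19 in the fit and 0.16 against shDDX3X 3. IL17RD (Sef), an inhibitor of FGF receptor signalling, was at 63.9 and 32.6 CPM in the controls, 7.12, 6.79 and 16.2 CPM in the knockdowns and 39.2 CPM with wild type, 120.0% of vector. In the G302V, R534H and P568L libraries IL17RD was at 54.0, 52.4 and 30.5 CPM. PHLDA1 was at 240.4 and 158 CPM, 152, 86.5 and 90.04 CPM, and 180.04 CPM. EGR3, an immediate early transcription factor, was at 2.73 and 2.37 CPM, 0.248, 0.587 and 0.355 CPM, and 1.51 CPM, near the counting floor of 0.230 to 0.365 CPM (3 counts) in the knockdowns. All 3 were above each knockdown with wild type. MYC, itself a target of this pathway, was at 13.3 and 35.1 CPM in the controls, 65.1, 59.7 and 53.5 CPM in the knockdowns and 38.7 CPM with wild type, below each knockdown and at 110% of vector.

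Several further genes that were higher with wild type lay within 2-fold of vector. MXRA5, a secreted matrix protein, was at 57.0 and 87.2 CPM in the controls, 8.03, 10.1 and 32.4 CPM in the knockdowns and 83.9 CPM with wild type. S100A2, a calcium-binding protein, was at 194 and 96.5 CPM, 42.9, 85.9 and 32.1 CPM, and 93.6 CPM. PPARGC1A, the coactivator of mitochondrial biogenesis, was at 25.1 and 15.7 CPM, 2.57, 2.01 and 6.499 CPM, and 15.1 CPM. Wild type was above all knockdowns and between 96.2% and 96.9% of vector for these 3 genes. ACSS2, which makes acetyl-CoA from acetate, was at 28.1 and 29.4 CPM, 8.69, 12.1 and 14.9 CPM, and 30.8 CPM, also level with the controls. Of the nuclear receptor RORA the values were 61.7 and 32.6 CPM, 23.8, 24.0 and 14.5 CPM, and 29.2 CPM. The prohormone convertase PCSK1 was at 41.4 and 35.5 CPM, 11.0, 14.7 and 15.6 CPM, and 48.2 CPM.

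Other genes stopped between knockdown and control or passed the controls. The lysophosphatidic acid receptor LPAR1 was at 82.4 and 58.0 CPM in the controls, 23.2, 16.3 and 14.5 CPM in the knockdowns and 33.7 CPM with wild type, 58.1% of vector. The BMP-binding protein BMPER was at 54.8 and 9.47 CPM, 2.32, 4.36 and 2.13 CPM, and 7.92 CPM, 83.7% of vector but far under parental. C1R, a complement protease, was at 30.0 and 32.4 CPM, 17.5, 18.4 and 21.98 CPM, and 53.1 CPM, and the matrix proteoglycan LUM was at 21.8 and 13.5 CPM, 7.70, 9.55 and 9.45 CPM, and 24.8 CPM. Both exceeded the controls. The tetraspanin TSPAN11 was at 14.9 and 14.3 CPM, 1.57, 4.27 and 5.199 CPM, and 32.3 CPM, 226% of vector.

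Genes lower with wild type held both kinds as well. ARHGAP31, which turns off the GTPases Rac and Cdc42, was at 88.8 and 77.6 CPM in the controls, 177, 189 and 177 CPM in the knockdowns and 91.1 CPM with wild type, 117% of vector. PTHLH, parathyroid hormone-like hormone, was at 22.4 and 27.7 CPM, 83.2, 59.0 and 62.0 CPM, and 32.4 CPM. The MAP kinase phosphatase DUSP1 was at 14.9 and 30.5 CPM, 35.8, 37.2 and 62.7 CPM, and 29.5 CPM. In these genes wild type was below every knockdown and close to the vector level. DAPK1, a kinase of cell death pathways, was at 60.5 and 48.7 CPM in the controls, 80.3, 89.6 and 53.1 CPM in the knockdowns and 25.5 CPM with wild type, below controls and knockdowns alike. In the G302V, R534H and P568L libraries DAPK1 was at 34.8, 29.5 and 30.6 CPM. The imprinted long non-coding RNA MEG3 was at 103 and 99.1 CPM, 39.5, 58.1 and 66.2 CPM, and 18.4 CPM. MEG3 was lower in knockdown than in control and lower again with wild type, at 18.6% of vector, with log2 fold changes of -1.70 ± 0.44 (SE) against knockdown and -2.58 against control (edgeR adjusted p = 1 and 0.991).

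A last set did not come back to the vector level. TP63, the p53 relative of epithelial stem cells, was at 18.6 and 23.5 CPM in the controls, 3.31, 2.43 and 2.48 CPM in the knockdowns and 8.51 CPM with wild type, 36.2% of vector. The cytoskeletal adaptor GAS7 was at 134 and 104 CPM, 14.7, 16.6 and 7.68 CPM, and 40.3 CPM, 38.9% of vector. For both, wild type was above each knockdown by more than 2-fold and below each control by more than 2-fold. TNS4, a focal adhesion protein, was at 10.9 and 13.6 CPM, 0.828, 1.26 and 0.945 CPM, and 2.10 CPM, 15.4% of vector. IGFBP3, which binds insulin-like growth factors, was at 365 and 300 CPM, 80.3, 134 and 78.1 CPM, and 116 CPM, inside the knockdown range. ITIH5, a hyaluronan-binding matrix protein, was at 11.6 and 34.0 CPM, 0.662, 0.503 and 7.33 CPM, and 6.53 CPM, no higher than shDDX3X 3.

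On the raised side, PIK3CD, a catalytic subunit of phosphoinositide 3-kinase, was at 11.4 and 25.4 CPM in the controls, 74.8, 49.7 and 61.2 CPM in the knockdowns and 58.6 CPM with wild type, 230% of vector against 241% in shDDX3X 3. The transcription factor CSRNP1 was at 6.08 and 12.1 CPM, 27.98, 21.5 and 30.7 CPM, and 27.0 CPM, 223% of vector. Both stayed inside the knockdown range. HIC2, a zinc finger repressor, was at 5.30 and 8.97 CPM, 22.2, 17.2 and 35.0 CPM, and 18.1 CPM, and FJX1 at 3.74 and 12.2 CPM, 34.7, 18.7 and 39.9 CPM, and 23.7 CPM, each near 2-fold above vector. Knockdown had raised all 4 (edgeR adjusted p from 0.0240 to 0.0449).

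Of the functions closest to DDX3X itself, none had a large median change. Median log2 fold changes of wild type against knockdown were -0.10 for 37 translation initiation factors, -0.11 for 71 ribosomal protein genes, -0.08 for 31 DEAD-box helicases and -0.07 for 22 stress granule proteins. Against shDDX3X 3 these medians were -0.051, -0.076, 0.044 and -0.045. In the same order 26, 55, 20 and 13 members were lower in the fit (51.8% of all genes were). Below all 3 knockdowns lay 13, 18, 8 and 10 of them (22.2% of all genes). None of the translation, helicase or stress granule genes reached an unadjusted p under 0.05 in either direction, and 1 ribosomal gene did, lower. Oxidative phosphorylation (0.05), p53 targets (0.02), the unfolded protein response (0.03) and hypoxia and glycolysis (-0.07) were also near the median of all genes. Against shDDX3X 3 their medians were -0.036, 0.006, -0.031 and -0.044. The hedgehog pathway (-0.12) and TGF-beta targets (-0.15) were slightly lower, with medians of -0.047 and -0.029 against shDDX3X 3. Wnt targets had a median of 0.27 over 17 genes, with 0 at an unadjusted p under 0.05 in either direction. Against shDDX3X 3 the Wnt median was 0.545. ATF4 targets of the amino acid response were lower in 28 of 32 (51.8% of all genes were), with a median of -0.36 in the fit. Within series B the median log2 ratio of wild type was -0.32 to shDDX3X 3 and -0.45 to vector. To shDDX3X 1 and 2, of the other series, it was 0.64 and 0.95. The summed level of these genes was 3131, 3293 and 2620 CPM in parental, shDDX3X 1 and shDDX3X 2 (series A). In vector, shDDX3X 3 and wild type (series B) it was 6201, 5859 and 4732 CPM.

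**Figure D5:**
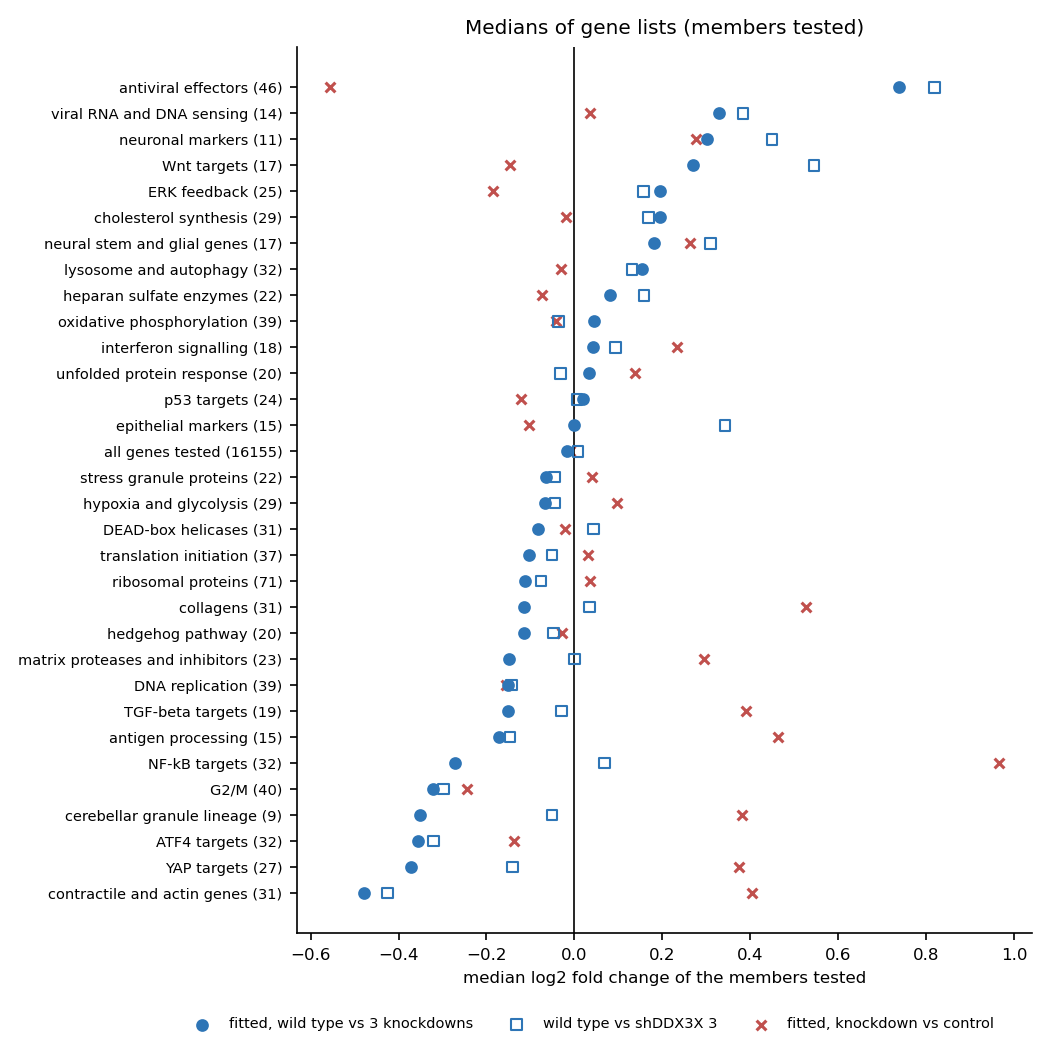
Median log2 fold change (horizontal) of each gene list, with the number of members tested in brackets, for wild type against the 3 knockdowns in the fit (filled circles), wild type against shDDX3X 3 (open squares) and knockdown against control in the fit (crosses). Antiviral effectors (0.74) and contractile genes (-0.48) lie at the ends on the side away from their crosses, G2/M genes (-0.32) lie on the same side as theirs (-0.24), and for NF-kB targets circle (-0.27) and square (0.07) fall on different sides of 0.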

How the data were processed

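RNA-seq of poly(A) RNA was done with an Illumina TruSeq kit that does not mark strand, per the labels' protocols, so reads of antisense or overlapping genes cannot be told apart. The authors deposited raw read counts per Ensembl gene (57820 identifiers), 1 table per library. In the submitters' processing notes stand HISAT2, HTSeq, bcl2fastq and DESeq2, with the builds hg19 and GRCh37. Their versions and settings are not given in the sources used. The 5 HTSeq summary lines (20.3% to 35.8% of reads) stayed out. Symbols matched 51996 identifiers (89.93%) in the RefSeq table and 339 more in GENCODE v29. Promoter sequences are RefSeq's on GRCh38.p14, another build than that of the counts, and serve only to show letters (11557 of the genes tested matched).

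Differences were tested by robust quasi-likelihood in edgeR 4.0.16 (with limma 3.58.1, R 4.3.3) after TMM scaling. A gene entered if 2 or more libraries had 1 CPM or more (16155 genes). All 9 libraries were fitted with group and number series as terms (4 residual degrees of freedom, prior 5.85), adjusted by Benjamini and Hochberg, threshold 0.05. The single wild type library is assumed to vary like the other groups. DESeq2 1.42.0 was an alternative, and others changed the normalization, filter, series term, GC trend and libraries. The test was also run on simulated counts, whose outcome is not reported here. Log2 ratios within a series use a pseudocount of 0.5 and have no test. Intervals are 95%, and floors (3 counts) cover counting error only. Since no label ties replicates to separate cultures, a p-value here reflects the spread of these libraries alone, possibly a technical one. Library pairs of a group were not copies of each other (chi-square of counts 11.2 to 96.3 per degree of freedom).

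Members and the 33 gene lists were chosen with earlier results of these data known. Named genes are DDX3X, the 12 higher and 12 lower with the smallest p outside the knockdown range (mean of at least 5 CPM), the most changed by knockdown in series A, up to 6 members of each list in the direction of its median and 2 in the other, and genes an earlier account had named. Not every gene of these sets is printed, and some are not reported here.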

Additional observations from a re-analysis of the deposited data

How the results depend on the processing

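For wild type against knockdown the number of genes called was 0, and it was 57 with no filter on low counts, 3 with DESeq2, 5 in series B alone and 0 to 596 on leaving out 1 library (596 without shDDX3X 3, 1 without either control). For wild type against control it was 0, and 52, 5, 10 and 0 to 607 (607 without vector) in the same order. For knockdown against control it was 109, and 1920 with no filter, 17 at a mean of at least 5 CPM, 1324 with DESeq2, 6 with no series term, 0 without the mutant libraries, 308 with the GC trend removed and 1 to 2087 on leaving out 1 library (2087 without shDDX3X 3 and 2064 without vector). The cause was not tested. With the replicate number as a block (controls and shDDX3X 1 and 2), 0 genes were called for knockdown against control and 862 had an unadjusted p under 0.05. Those numbers share only a number (correlation of deviations 0.016 over 11729 genes), and the wild type library has none. The share of lowered genes at least 2-fold higher in wild type than in shDDX3X 3 was 6.575% when a 1.5-fold change chose them and 28.8% at 3-fold. The share of raised genes at least 2-fold lower in wild type than in shDDX3X 3 was 1.61% at a mean of at least 1 CPM. Against shDDX3X 3, 552 genes were at least 1.5-fold and 49 at least 3-fold higher, and 283 and 8 lower.

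Of the log2 fold changes of wild type against knockdown, DDX3X ranged from 0.10 to 0.60 on leaving out 1 library. ITIH5 changed sign in series B alone (-0.18) and without parental or vector, with a range of -0.17 to 1.91 on leaving out 1 library. IGFN1 did so without shDDX3X 3 (range -1.84 to 0.25), and CSRNP1 with no series term (0.018) and in the fit of the 4 libraries alone (0.0076). The median kept its direction in all 17 alternatives for antiviral effectors (0.58 to 0.93), G2/M genes (-0.53 to -0.29) and contractile genes (-0.73 to -0.39). It changed sign in 3 of 17 for collagens (-0.64 to 0.04) and NF-kB targets (-1.11 to 0.07) and in 2 of 17 for ATF4 targets (-0.40 to 0.30) and ribosomal proteins (-0.16 to 0.04). At these depths, genes at or under 0.230 to 0.365 CPM cannot be told from absent.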

Other observations

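Lysosome and autophagy genes were slightly higher with wild type DDX3X. Of 32 members, 20 were higher and 12 lower (48.2% of all genes were higher). At an unadjusted p under 0.05, 3 were higher and 1 lower (1.77% and 1.15% of all genes). The median log2 fold change was 0.15 in the fit and 0.13 against shDDX3X 3, and 19 lay above all 3 knockdowns (24.0% of all genes). The protease CTSL was at 185 and 135 CPM in parental and vector cells, 125, 149 and 114 CPM in the knockdowns and 163 CPM with wild type, above each knockdown by less than 2-fold. In the cholesterol pathway 21 of 29 genes were higher (48.2% of all genes were), with a median of 0.19 in the fit and 0.17 against shDDX3X 3. INSIG1, which holds back sterol synthesis, was at 135 and 73.2 CPM, 82.9, 143 and 90.6 CPM, and 148 CPM.

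The neural genes MAP2 and GFAP were higher in the wild type library than in each knockdown and control library. MAP2, a microtubule protein of neurons, was at 3.82 and 11.0 CPM in parental and vector cells, 2.73, 4.61 and 21.98 CPM in the knockdowns and 36.8 CPM with wild type, 333% of vector, beside 39.4, 39.5 and 29.1 CPM in the G302V, R534H and P568L libraries. The intermediate filament GFAP was at 0.546 and 0.887 CPM, 0.497, 0.168 and 1.77 CPM, and 4.54 CPM, with several values near the counting floor. Both were higher in shDDX3X 3 than in the knockdowns of series A. Of 11 neuronal markers 9 were higher and 2 lower in the fit (48.2% of all genes were higher). Their median log2 fold change was 0.30 in the fit and 0.45 against shDDX3X 3. MAP2 was the 1 member at an edgeR unadjusted p under 0.05. The 17 neural stem and glial genes divided into 9 higher and 8 lower, with a median of 0.18 in the fit and 0.31 against shDDX3X 3. Their 1 member at an edgeR unadjusted p under 0.05 was FABP7, not GFAP. FABP7 was at 1.28 CPM with wild type and no higher than 0.312 CPM in the controls and knockdowns. The neuronal markers RBFOX3 and DCX stayed below the level tested.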
